A study of Mus musculus with 6 samples.

Results

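Transcription factors of endothelium were examined in sorted skin endothelial cells of APJ knockout mice and of wild-type mice; APJ is the cell-surface receptor that binds apelin. The set is a list of 49 genes from the ETS, SOX, GATA, FOX, MEF2, homeobox, T-box, NFAT, TEAD and SNAI families and from the TAL1-LMO2 complex, with the E protein gene Tcf4 and the nuclear receptor gene Nr2f1, found among the array's probes through their RefSeq accessions. All 49 had a probe, 72 probes in all, among 20018 gene symbols on the array. In all, 47 of the 49 were bright enough to be tested, out of 24221 features that passed the same filter, of which 13443 carried a symbol.

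RNA was hybridised to 6 one-colour Agilent arrays, 3 of APJ knockout (APJ KO) and 3 of wild-type samples. Both groups were C57Bl/6J, the cells were collected by fluorescence-activated sorting with no culture or treatment, and the labels number 1 mouse per sample. The sort markers, the age of the animals, the knockout allele and how many animals stood behind each sample are not given in the labels used here, although an embryonic stage appears in the names of the files. The p-values therefore measure the spread between these samples only. Levels are log2 processed intensities minus the array's own 75th percentile, so that 0 is the 75th percentile of all probes, and each difference is APJ KO minus wild type.

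ETS proteins bind a short purine-rich core found in the enhancers of nearly all endothelial genes, and they act there together with FOX, SOX, GATA and MEF2 proteins. The basic helix-loop-helix proteins TAL1 and LYL1 are joined by the bridging proteins LMO2 and LDB1 into a complex that also contains GATA factors. SNAI and ZEB proteins are repressors known for their part in the change of epithelial or endothelial cells toward a mesenchymal state, and TEAD proteins carry the output of the Hippo pathway.

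One of the 47 tested genes passed the threshold. Zfhx3, a large protein with many zinc fingers and homeodomains, fell in APJ KO cells to 57.2% of its wild-type signal. The remaining 46 did not pass, among them all 13 tested ETS genes, the 4 genes of the TAL1-LMO2 complex and the 3 genes each of the GATA, SOX and MEF2 groups. The call was an adjusted p under 0.05 in limma, with Benjamini-Hochberg adjustment over all 24221 features tested, a feature being a gene or a probe without a symbol. By that rule 0.553% of everything tested was called, 0.186% lower and 0.367% higher, against 2.13% of these 47. That share is 1 gene, and the call on Zfhx3 rests on all 6 arrays, as given below.

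The upstream sequences of 3 genes on which the results turn are shown first. Zfhx3 is the one that passed, and Snai1 had the highest difference of APJ KO minus wild type among the 47 tested. Elk3 is the ETS gene with the highest signal of the set by its brightest probe. Each sequence is the 250 bases before a RefSeq start on build GRCm38.p6, the first one listed where a gene has several. Zfhx3 lies at chr8:108714394-108714643 on the plus strand, Snai1 at chr2:167537945-167538194 on the plus strand and Elk3 at chr10:93311160-93311409 on the minus strand. Capitals mark matches to the 5 motifs searched on both strands.
Zfhx3: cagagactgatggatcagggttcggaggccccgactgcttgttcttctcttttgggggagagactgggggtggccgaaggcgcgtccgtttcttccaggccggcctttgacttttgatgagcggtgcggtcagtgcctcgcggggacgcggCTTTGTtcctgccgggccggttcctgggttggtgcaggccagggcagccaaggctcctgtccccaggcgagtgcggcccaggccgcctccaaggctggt
Snai1: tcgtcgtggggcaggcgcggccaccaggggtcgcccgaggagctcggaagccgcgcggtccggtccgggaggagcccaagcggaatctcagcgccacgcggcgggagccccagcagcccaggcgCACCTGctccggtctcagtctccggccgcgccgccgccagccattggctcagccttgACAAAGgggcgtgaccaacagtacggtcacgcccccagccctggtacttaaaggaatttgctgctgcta
Elk3: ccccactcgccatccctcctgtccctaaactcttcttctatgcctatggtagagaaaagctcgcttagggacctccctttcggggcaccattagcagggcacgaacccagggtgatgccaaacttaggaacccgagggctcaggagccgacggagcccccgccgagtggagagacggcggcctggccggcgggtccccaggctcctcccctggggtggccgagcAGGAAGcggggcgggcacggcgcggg
The 5 motifs were each 6 bases long. Windows were found for 33 of the 49 genes, 56 windows in all, and were set beside all 32851 windows of the table. The ETS motif was AGGAAG, present in 33.9% of the windows of the set and in 29.5% of all windows, and in the Elk3 window it began 26 bases before the start. The SOX motif was ACAAAG, present in 14.3% of the windows of the set and in 16.5% of all. It lay on the reverse strand 99 bases before the start in the Zfhx3 window, and 69 bases before the start in the Snai1 window. An E-box bound by SNAI and ZEB proteins, searched as CAGGTG, was present in 14.3% of the windows of the set and in 17.2% of all, and lay in the Snai1 window 126 bases before the start, on the reverse strand. The FOX motif, searched as TAAACA, was present in 12.5% of the windows of the set and in 12% of all windows. The GATA motif, searched as AGATAA, was present in 5.4% of the windows of the set and in 10.0% of all windows. A match describes the letters only.

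**Figure D1:**
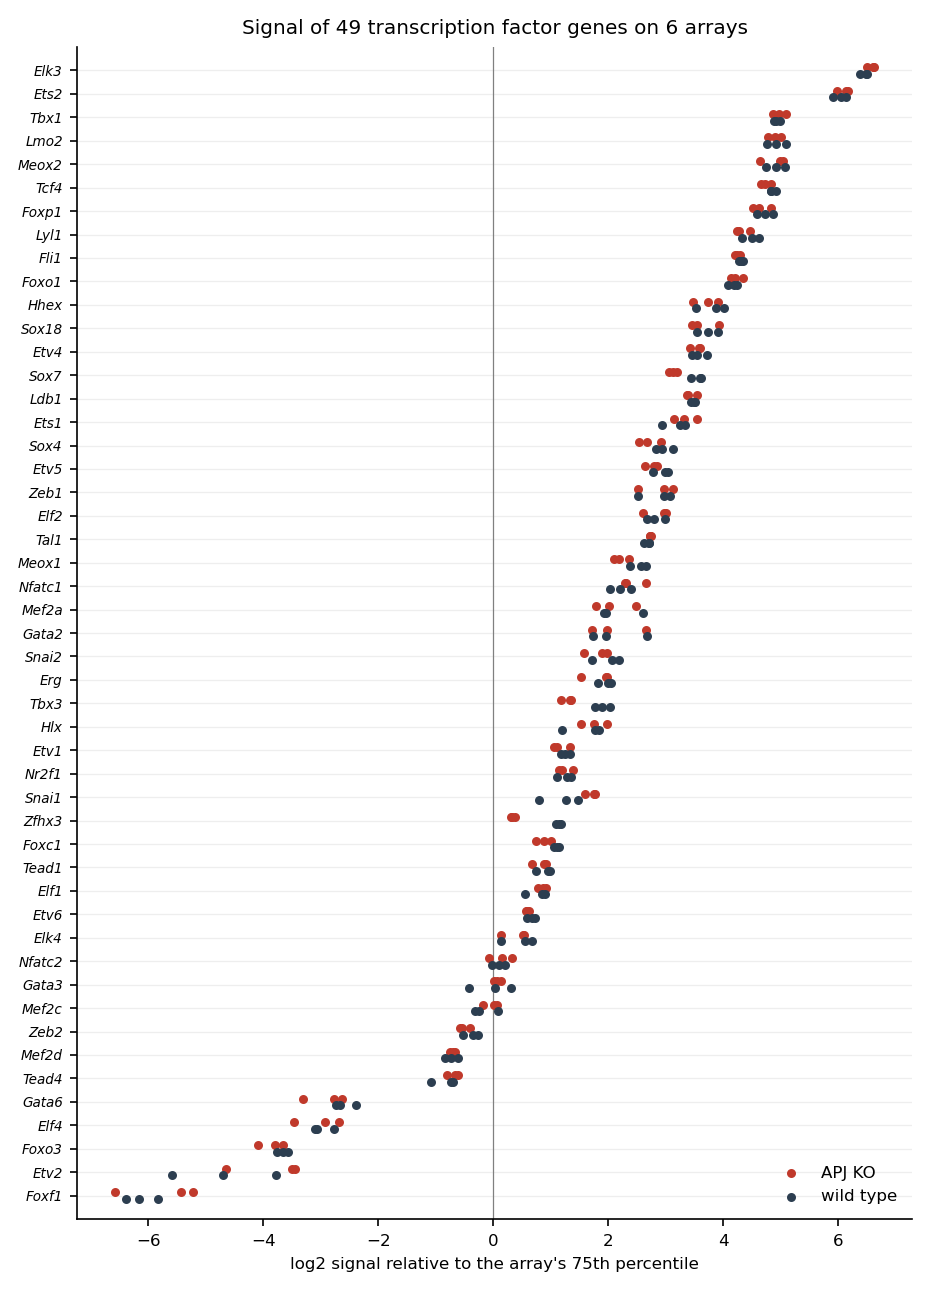
Signal of all 49 genes on each of the 6 arrays, as log2 intensity relative to the array's 75th percentile (horizontal axis), ordered by the wild-type mean from Elk3 at the top to Foxf1 at the bottom. Each point is 1 array, with APJ KO drawn just above wild type in each row. The gap between the groups in the Zfhx3 row, -0.81 between means, is small beside the span of the rows, whose wild-type means run from -6.12 to 6.45.

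The order of probe signals in wild-type cells ran from Elk3 and Ets2 at the top to Foxf1 at the bottom. It does not rank transcript abundance, since probes differ in how brightly they bind. It takes the brightest probe of each gene, and the 3 probes of Elk3 averaged 6.45, 5.49 and 1.62 in wild type. In all, 39 of the 49 lay above the 75th percentile of the array and 10 below it. The plot of signal on the 6 arrays shows this order. The next after Elk3 and Ets2 were Tbx1, Lmo2, Meox2, Tcf4, Foxp1 and Lyl1. Tbx1, Lmo2 and Meox2 averaged 4.93, 4.92 and 4.91 in wild type with SDs of 0.05 to 0.17, so that their order is not resolved. The order was kept in APJ KO cells within 3 places for 47 of the 49 genes, and the largest shift was that of Zfhx3, which stood at place 38 in APJ KO cells and 33 in wild type.

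Among the ETS genes, Elk3 encodes a ternary complex factor that works with serum response factor. Elk3 read 6.49, 6.62 and 6.6 on the APJ KO arrays, against 6.49, 6.48 and 6.38 on the wild-type arrays, a difference of 0.12 ± 0.09 (SE). Ets2, a target of MAP kinase signalling, read 6.14, 6.16 and 5.97 in APJ KO and 6.05, 6.14 and 5.91 in wild type. The arrays of the genotypes were interleaved or touching for both genes. Etv5, a member of the PEA3 subgroup induced by fibroblast growth factor signalling, read 2.63, 2.80 and 2.85 in APJ KO, against 2.78, 2.98 and 3.04 in wild type. Its difference of -0.17 ± 0.11 (SE) was the lowest of the 13 ETS genes tested.

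Erg and Fli1, the ETS genes best known as keepers of endothelial identity, differed by -0.13 ± 0.15 and -0.07 ± 0.08 (SE). Ets1, a gene tied to angiogenic sprouting, differed by 0.16 ± 0.15 (SE), the highest of the ETS genes, and the median of the 13 was -0.05 (log2). Of the 13, 5 lay above 0 and 8 below. Etv2, the factor that starts the endothelial lineage in the early embryo, was not tested, since its brighter probe was well above background on 2 APJ KO arrays and 1 wild-type array.

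In the complex around TAL1, the bridging protein gene Lmo2 read 4.89, 5.0 and 4.78 in APJ KO and 5.09, 4.92 and 4.76 in wild type. Lyl1 read 4.24, 4.28 and 4.46 in APJ KO, against 4.32, 4.50 and 4.62 in wild type, a difference of -0.16 ± 0.12 (SE). The Lyl1 groups overlapped. Tal1 read 2.73, 2.72 and 2.75 in APJ KO, against 2.71, 2.70 and 2.62 in wild type, so its groups did not overlap, yet the difference was 0.06 ± 0.08 (SE) and its limma unadjusted p was 0.498. Tcf4, an E protein that pairs with TAL1, read 4.72, 4.65 and 4.83 in APJ KO and 4.82, 4.82 and 4.92 in wild type, a difference of -0.12 ± 0.09 (SE). Ldb1 differed by -0.05 ± 0.09 (SE).

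Gata2, the GATA factor most tied to endothelium and blood stem cells, read 1.72, 1.97 and 2.66 in APJ KO, against 1.96, 1.73 and 2.68 in wild type. The third array of each genotype was the high one, and the genotype difference was -0.01 ± 0.32 (SE), the widest error among the 47 tested genes of the set. Gata6 lay well below the 75th percentile, at -2.63, -2.77 and -3.30 in APJ KO and -2.66, -2.38 and -2.73 in wild type. Its difference was -0.31 ± 0.20 (SE) with overlapping groups, and Gata3 differed by 0.10 ± 0.18 (SE).

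The 3 SOX genes all lay below 0, and none passed the threshold. Sox7, Sox17 and Sox18 form the SOX group of vascular development, with SOX18 also needed for lymphatic vessels. Sox7 read 3.19, 3.13 and 3.06 in APJ KO, against 3.62, 3.60 and 3.44 in wild type. Every APJ KO array was below every wild-type array, with a difference of -0.42 ± 0.09 (SE), 95% interval -0.64 to -0.20, and a limma adjusted p of 0.166. Sox18 read 3.93, 3.45 and 3.55 in APJ KO and 3.74, 3.90 and 3.55 in wild type, with no separation of the genotypes and a 95% interval of -0.46 to 0.30. Sox4, a related gene of another SOX group, read 2.54, 2.68 and 2.91 in APJ KO, against 2.83, 2.93 and 3.13 in wild type, a difference of -0.26 ± 0.13 (SE). Sox17, given here as the other member of the group of Sox7 and Sox18 though not on the list of 49, differed by 0.02 ± 0.11 (SE).

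Of the 4 FOX genes tested, 1 lay above 0 and 3 below, and none passed. Foxp1, a forkhead repressor, read 4.51, 4.62 and 4.83 in APJ KO and 4.59, 4.72 and 4.87 in wild type. Foxc1, which acts in arterial and lymphatic specification and in the mesenchyme around vessels, read 0.75, 0.88 and 1.00 in APJ KO, against 1.11, 1.06 and 1.15 in wild type. The Foxc1 groups did not overlap, with a difference of -0.23 ± 0.10 (SE) and a limma adjusted p of 0.637. Foxo3, a target of AKT signalling, was dim, at -4.09, -3.80 and -3.65 in APJ KO and -3.56, -3.66 and -3.76 in wild type, and its groups overlapped. Foxo1, the FOXO gene that holds endothelial cells in quiescence, differed by 0.06 ± 0.10 (SE), and Foxf1 was well above background on 0 of 6 arrays.

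Among the homeobox genes Meox2, an inhibitor of endothelial proliferation, read 4.99, 5.03 and 4.63 in APJ KO and 5.08, 4.91 and 4.74 in wild type. Its relative Meox1 read 2.36, 2.10 and 2.18 in APJ KO, against 2.37, 2.66 and 2.56 in wild type. The Meox1 groups did not overlap but nearly touched, at 2.36 in APJ KO and 2.37 in wild type, and the difference was -0.32 ± 0.12 (SE) with a limma adjusted p of 0.52. Hhex, an early endothelial and liver homeobox gene, differed by -0.10 ± 0.17 (SE), and the H2.0-like homeobox gene Hlx differed by 0.16 ± 0.20 (SE).

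The T-box pair split. Tbx1, which is required for lymphatic and pharyngeal vessel development, read 4.87, 4.96 and 5.09 in APJ KO, against 4.88, 4.91 and 4.99 in wild type, a difference of 0.05 ± 0.09 (SE). Tbx3, a T-box repressor known from limb, heart and mammary development, read 1.35, 1.17 and 1.33 in APJ KO, against 1.77, 1.89 and 2.03 in wild type. All 3 APJ KO arrays were below all 3 wild-type arrays and the mean signal was 65.4% of wild type. The Tbx3 difference of -0.61 ± 0.11 (SE), 95% interval -0.87 to -0.36, had a limma adjusted p of 0.0861. With the slide as a block, where 1.18% of everything tested was called, it was 0.0467, and with a trend of the spread on signal, where 0.817% was, it was 0.0444. It stayed above the threshold in the other 9 alternatives tested on it, between 0.0631 and 0.481, the replicate block among them at 0.117, and in all 6 fits without 1 array, between 0.168 and 0.304.

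Zfhx3 read 0.30, 0.37 and 0.33 in APJ KO cells, against 1.17, 1.15 and 1.09 in wild-type cells. The gap between the groups was many times the range within either, with SDs of 0.03 in APJ KO and 0.04 in wild type. The difference was -0.81 ± 0.08 (SE), 95% interval -0.996 to -0.615, with a limma adjusted p of 0.0205. It was -0.83 on slide 1 and -0.76 on slide 2, and with the slide as a block the adjusted p was 0.0152. With the replicate number as a block, where 0.0206% of everything tested was called, the adjusted p was 0.0736. Leaving out any 1 of the 6 arrays kept the difference between -0.83 and -0.79 and moved the limma adjusted p to between 0.0564 and 0.119, so the call ended in all 6 of those fits. An exact permutation test of 3 against 3 arrays gave its smallest possible p, 0.1.

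Zfhx3 was measured by 1 probe, on mouse chromosome 8, where 712 genes were tested. None of the 5 tested genes on either side of it passed the threshold, and Psmd7 and Gm1943, the nearest ones, differed by -0.02 ± 0.08 and -0.13 ± 0.10 (SE). These genes are named for their place next to Zfhx3. The nearest other called gene of the chromosome, Osgin1, lay 61 tested genes away and rose by 0.98 ± 0.10 (SE), with a limma adjusted p of 0.0205.

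Of the genes related to Zfhx3 by their zinc fingers and homeodomains, Zeb1 read 3.12, 2.97 and 2.52 in APJ KO and 3.07, 2.96 and 2.51 in wild type. Zeb1 was lowest on the third array of both genotypes, and Zeb2 differed by -0.12 ± 0.10 (SE). Snai1, a zinc finger repressor of cadherin genes, read 1.6, 1.76 and 1.75 in APJ KO, against 1.48, 0.80 and 1.27 in wild type. The groups did not overlap, and the SD was 0.09 in APJ KO and 0.35 in wild type. The Snai1 difference was 0.52 ± 0.18 (SE), 95% interval 0.09 to 0.95, with a limma adjusted p of 0.469. Its paralogue Snai2 differed by -0.18 ± 0.17 (SE).

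Of the remaining families, Nfatc1, the calcineurin-regulated factor of heart valves and lymphatic vessels, read 2.29, 2.31 and 2.65 in APJ KO, against 2.03, 2.21 and 2.40 in wild type. For this probe, the brightest of Nfatc1, the groups overlapped and the difference was 0.20 ± 0.14 (SE), while that of Nfatc2 was 0.04 ± 0.13 (SE). A dimmer Nfatc1 probe gave 0.50 without overlap of the groups. The mean over the Nfatc1 probes gave 0.35, with a limma adjusted p of 0.2. Mef2a, a MADS-box factor activated by MAP kinases, read 1.79, 2.01 and 2.49 in APJ KO and 1.96, 1.93 and 2.61 in wild type. Mef2c and Mef2d differed by 0.13 ± 0.14 and 0.02 ± 0.09 (SE). Nr2f1, an orphan nuclear receptor related to the venous factor Nr2f2, read 1.19, 1.15 and 1.39 in APJ KO and 1.11, 1.29 and 1.36 in wild type. Tead1 read 0.91, 0.89 and 0.67 in APJ KO and 0.99, 0.95 and 0.74 in wild type, and Tead4 differed by 0.14 ± 0.13 (SE).

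**Figure D2:**
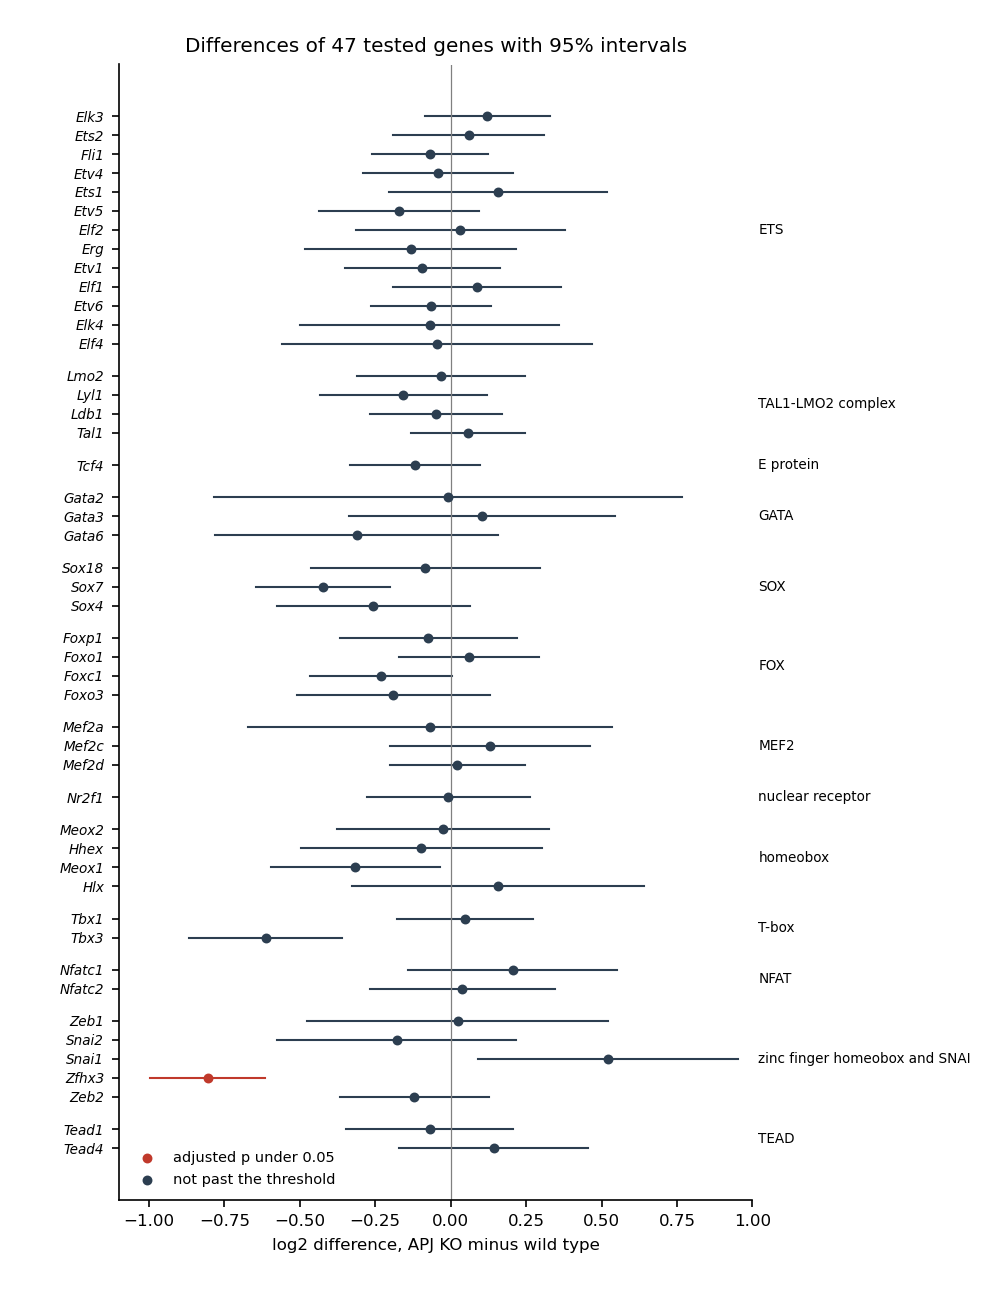
Log2 difference, APJ KO minus wild type, of the 47 tested genes (points) with the 95% interval of the limma fit (bars), grouped by family from ETS at the top to TEAD at the bottom. Zfhx3, in red, is the one past the adjusted p threshold of 0.05; 30 intervals lie within 0.5 of 0 on both sides.

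The values of the 47 tested genes were set beside those of everything tested. Their median difference was -0.05, against -0.02 over all tested, and their median absolute difference was 0.09, against 0.09 over all tested. In all, 17 lay above 0 and 30 below, 36.2% and 63.8%, against 43.5% and 56.5% over all tested. An absolute difference over 0.5 was reached by 3 of the 47, 6.38%, against 5.35% over all tested. At an unadjusted limma p under 0.05 there were 5, or 10.6%, against 8.03% over all tested.

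The plot of intervals shows how closely each difference was measured. For 30 of the 46 genes not called, the whole 95% interval lay within 0.5 on either side of 0. For the others it reached as far as -0.87 for Tbx3 and 0.95 for Snai1. The number of arrays limits this precision, and a gene that did not pass is not shown to be equal in the genotypes. In such bulk samples, fewer cells of a type and less RNA per cell cannot be told apart.

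**Figure D3:**
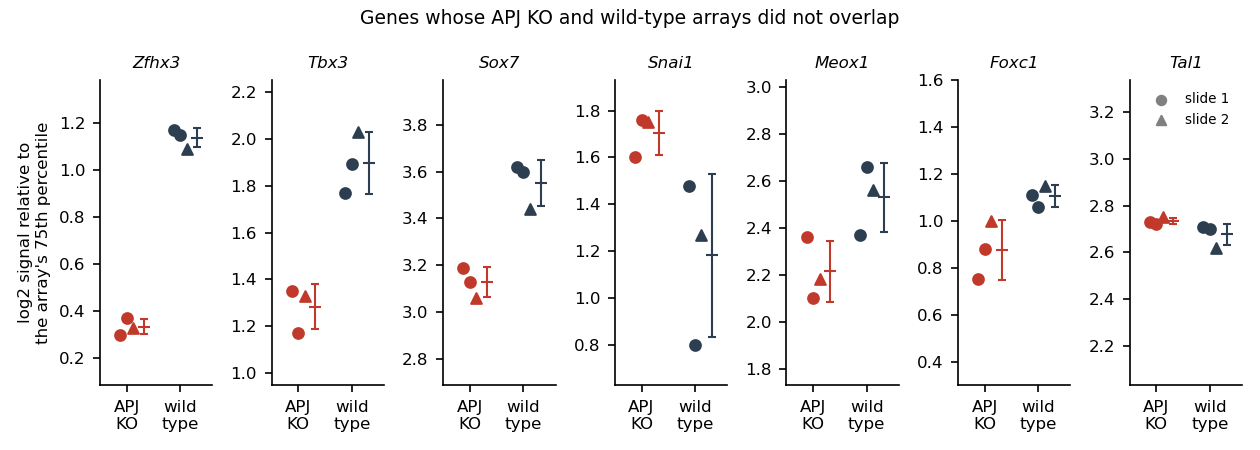
Log2 signal relative to the array's 75th percentile of the 7 genes whose groups did not overlap, with 1 point per array (circles slide 1, triangles slide 2) and the mean with SD of 3 arrays beside each group, APJ KO in red on the left and wild type on the right. All panels span the same height; the gap is widest for Zfhx3, at -0.81 between means, and smallest for Tal1, at 0.06.

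The groups did not overlap for 7 of the 47, or 14.9%, against 12.2% of everything tested. In 5 of them APJ KO was lower (Zfhx3, Tbx3, Sox7, Meox1 and Foxc1), where 5.86% of everything tested was, and in 2 it was higher (Snai1 and Tal1), where 6.37% was. The panels of these 7 genes show how unlike they are in size.

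Replicates 1 and 2 of both genotypes were on slide 1 and replicate 3 of both on slide 2, and the slides were also scanned in 2 batches. For 31 of the 47 genes the mean of slide 2 differed from that of slide 1 by more than the genotypes differed from each other, with the same sign in both genotypes for 35. The slide gap was over 0.5 for 3 genes, Gata2, Mef2a and Zeb1, where 9.76% of everything tested had such a gap. For Gata2 it was 0.81 in APJ KO and 0.84 in wild type, and for Mef2a 0.60 in APJ KO and 0.67 in wild type. For Zeb1 it was -0.52 in APJ KO and -0.50 in wild type. The genotype difference had the same sign on both slides for 34 genes and the opposite sign for 13.

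**Figure D4:**
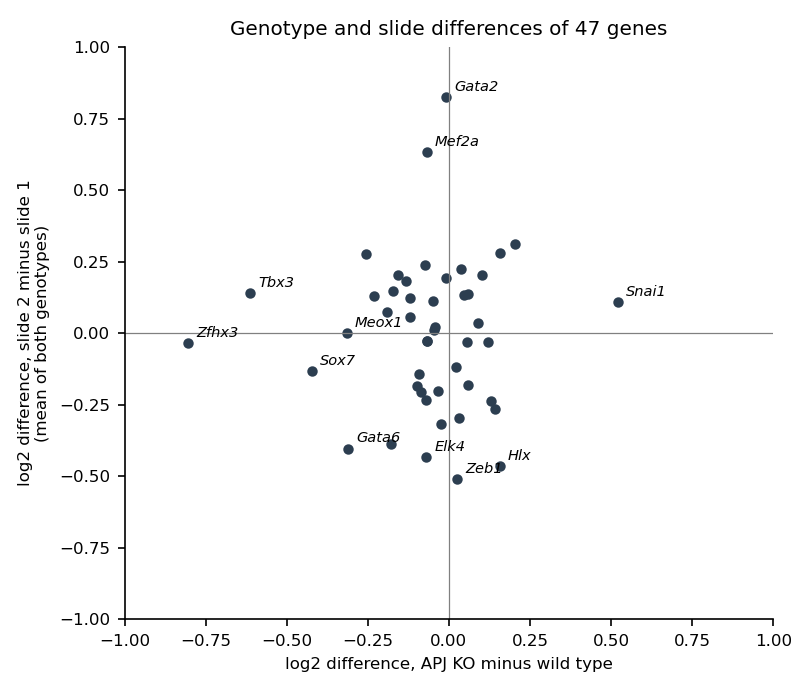
Each point is 1 of the 47 tested genes, placed by its genotype difference (horizontal axis, APJ KO minus wild type, log2) and its slide difference (vertical axis, slide 2 minus slide 1, mean of both genotypes, log2). Gata2, Mef2a and Zeb1 are far from 0 on the slide axis and close to 0 on the genotype axis, while Zfhx3 and Tbx3 show the reverse, with slide differences of -0.03 and 0.14.

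For 15 genes more than 1 probe was tested, and the values above are those of the brightest. Their probes differed in level by a median of 2.45 log2 units and by as much as 6.85 for Foxp1. The direction of the genotype difference was the same for all probes of 8 genes and differed between probes for 7: Elf1, Elk4, Erg, Etv4, Mef2a, Tcf4 and Tead1. Tead1, the DNA-binding partner of YAP and TAZ, had the widest range of differences, from -0.07 by its brightest probe to 0.32 and 0.63 by 2 dimmer ones. For Foxp1, Mef2d, Nfatc1, Sox4 and Tead1 the groups overlapped by the brightest probe but not by a dimmer one. Zfhx3, Tbx3 and Sox7 had 1 probe each, so no other probe of these genes bears on their values.

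**Figure D5:**
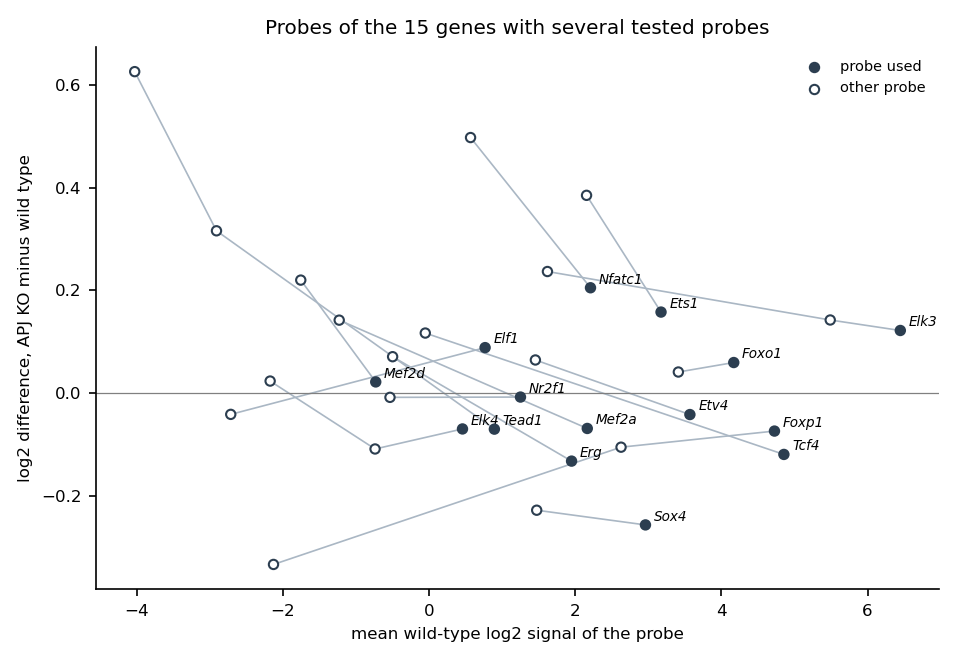
Genotype difference (vertical axis, APJ KO minus wild type, log2) against mean wild-type log2 signal (horizontal axis) of every tested probe of the 15 genes with more than 1, with lines joining probes of 1 gene and filled points marking the brightest. Probes of a gene lie far apart in signal, up to 6.85 for Foxp1, and the probe with the highest difference is the dimmest one of Tead1, at 0.63.

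Genes around these factors, listed with earlier results of the same data known, held no call in any of 13 lists. Of 25 other transcription factors of endothelium, 23 were tested, 10 above 0 and 13 below, with a median difference of -0.02. Bcl6b, a repressor related to BCL6, read 3.42, 3.53 and 3.43 in APJ KO, against 3.86, 3.76 and 3.78 in wild type, and Prox1, the master factor of lymphatic endothelium, read 0.13, 0.00 and -0.52 in APJ KO, against -0.68, -0.98 and -1.13 in wild type. Neither overlapped between groups, with differences of -0.34 ± 0.08 and 0.80 ± 0.20 (SE). Foxc2 differed by 0.41 ± 0.12 (SE). The groups did not overlap for 6 of the 23, beside 12.2% of everything tested. The 25 partners and cofactors had 11 above 0 and a median of -0.01. Rcan1, a calcineurin inhibitor that NFAT proteins induce, differed by 0.29 ± 0.10 (SE).

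Of 14 genes known as targets of FOXO proteins, 10 lay above 0, with a median of 0.17. Angpt2, the ligand that antagonises the receptor TIE2 and a FOXO1 target, read 3.26, 3.09 and 2.79 in APJ KO, against 2.07, 2.25 and 2.21 in wild type. Its difference of 0.87 ± 0.14 (SE) did not pass the threshold, though the groups were well apart. Txnip was lower in APJ KO and Cdkn1b higher, by -0.25 ± 0.09 and 0.21 ± 0.08 (SE), each without overlap. The groups did not overlap for 3 of the 14 FOXO targets, beside 12.2% of everything tested. Of 10 TEAD target genes 9 lay above 0, with a median of 0.08. Ankrd1, a muscle and stress-response ankyrin gene, differed by 0.85 ± 0.26 (SE), and Ccn2, a matricellular growth factor gene, by 0.32 ± 0.12 (SE). Of 13 mesenchymal genes 11 were tested, 4 above 0 and 7 below, and the fibronectin gene Fn1 read 6.88, 6.90 and 6.67 in APJ KO, against 6.23, 6.16 and 5.99 in wild type. Its difference of 0.69 had a limma adjusted p of 0.0682, of 0.0194 with the slide as a block and of 0.0736 under the replicate block.

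The targeted gene Aplnr, which encodes APJ, read 1.89, 1.71 and 2.26 in APJ KO, against 3.35, 3.77 and 3.82 in wild type, a difference of -1.69 ± 0.19 (SE) with a limma adjusted p of 0.0236. All 6 arrays followed their labels. The adjusted p was 0.0786 with the replicate number as a block. Without 1 array it lay between 0.0352 and 0.134, and the call ended in 5 of those 6 fits, all but the one without APJ KO replicate 3. All 20 genes that mark endothelium in general were tested, 12 above 0 and 8 below, with a median of 0.02. Their signal, summed over the tested genes in multiples of the 75th percentile, ran over 1900 to 2060 in APJ KO and 1890 to 2070 in wild type.

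Markers of other cells differed beside these values, with no gene called. All 10 lymphatic markers lay above 0, with a median of 0.49 and summed signals of 582 to 657 in APJ KO and 537 to 629 in wild type. These sums rest mostly on 1 bright gene, Ccl21a, which differed by 0.08 ± 0.11 (SE). The groups did not overlap for 7 of the 10 markers, where 12.2% of everything tested did not. Stab2, Flt4 and Mmrn1 differed by 0.71 ± 0.14, 0.38 ± 0.08 and 0.48 ± 0.11 (SE). Of 13 macrophage markers 10 were tested and 9 lay above 0, with a median of 0.79. The groups did not overlap for 5 of the 10, beside the same 12.2% of everything tested. The lysozyme gene Lyz2 read -2.92, -3.71 and -3.25 in APJ KO, against -5.27, -5.54 and -4.57 in wild type, and the complement genes C1qa and C1qc differed by 1.79 ± 0.35 and 1.91 ± 0.45 (SE). The macrophage sums were 13.2 to 18.0 in APJ KO and 11.8 to 20.2 in wild type. But these rest mostly on 3 bright genes, Csf1r, Mrc1 and Tyrobp, while the other 7 lay below the 75th percentile in both groups. Spi1 was never well above background. All 7 tested keratinocyte markers of 12 lay below 0, with a median of -1.28. The groups did not overlap for 1 of the 7, beside the same 12.2% of everything tested. The keratinocyte sums were 10.4 to 11.2 in APJ KO, against 10.2, 16.3 and 34.1 on wild-type arrays 1, 2 and 3. The first wild-type array was thus no higher than APJ KO in this sum. There and in APJ KO the sum rests mostly on 1 bright gene, Trp63, which differed by -0.10 ± 0.10 (SE). For Krt5, Krt15 and Perp the first wild-type array read -1.81, -5.14 and -2.15, below all 3 APJ KO arrays. For Sfn it read -1.88, above all 3, and for Krt14, Krt10 and Trp63 it lay among them. The fibroblast sums were 6.66 to 10.6 in APJ KO and 7.11 to 9.26 in wild type. In that list 8 of 10 were tested, the groups overlapped for all 8, and Dpt was never well above background. Of 11 mural cell markers 7 were tested, 3 above 0 and 4 below, and Myh11 and Des were never well above background. The mural sums were 37.1 to 49.9 in APJ KO and 38.8 to 53.3 in wild type, mostly from 1 bright gene, Mcam. Mcam differed by -0.09 ± 0.18 (SE). Abcc9, Notch3 and Pdgfrb differed by 0.42 ± 0.11, -0.84 ± 0.29 and -0.58 ± 0.51 (SE). The groups did not overlap for 1 of the 7, beside 12.2% of everything tested. Of 9 melanocyte and neural crest markers 6 were tested, with sums of 5.45 to 6.06 in APJ KO and 5.55 to 6.43 in wild type. Most of this signal came from 1 bright gene, Kit, which differed by -0.05 ± 0.09 (SE). Of 10 erythroid markers 7 were tested, with sums of 349 to 602 in APJ KO and 332 to 577 in wild type. With the slide as a block the lymphatic markers Stab2 and Pdpn passed, at limma adjusted p of 0.0478 and 0.0484, and so did the macrophage marker Aif1, at 0.024. With the replicate number as a block these were 0.124, 0.0977 and 0.0945, and C1qa passed at 0.0428, against 0.0794 with the slide as a block. Pdpn, Aif1, Ccl21a, Csf1r, Mrc1, Tyrobp, Mcam, Kit, Trp63, Krt5, Krt15 and Perp are named after their values were seen. The part of these cells in the differences of Zfhx3, Tbx3, Sox7 and Snai1 was not tested.

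Over the 6 arrays, 50.3% to 57.97% of the probes were well above background by the scanner software's call, and 0 spots were saturated. All 47 tested genes of the set were well above background on all 6 arrays. Over the whole array 134 features were called, 89 higher and 45 lower in APJ KO. Leaving out 1 array gave between 16 and 61 calls. With the replicate number as a block there were 5, and with the slide as a block 286, or 1.18% of everything tested.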

How the data were processed

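RNA of 3 APJ KO and 3 wild-type samples was measured on one-colour arrays, grouped by the genotype label and numbered by title. Per the file headers, the deposited intensity of a spot is the background-subtracted Cy3 value of Agilent Feature Extraction (version 10.7.3.1), on a linear scale and not normalised between arrays. The table the authors deposited equals that intensity times an array-wide factor of 2.29 to 3.69, whose origin is not stated in the labels. On each array 59305 spots from 55681 probes were not controls, and 126 to 179 outlier spots were left out. The array's 75th percentile, 251.8 to 399.7 in intensity, was subtracted on the log2 scale.

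Probes entered the test when the scanner software called them well above background on all 3 arrays of either genotype, and 33 such probes with a missing value were left out. Each symbol took its probe of highest mean signal. Symbols came from RefSeq accessions and were found for 47.4% of probes. Differences were fitted with lmFit and eBayes of limma 3.58.1 in R 4.3.3, with genotype as the only term and two-sided p-values adjusted by Benjamini-Hochberg over everything tested. The fit was tested on simulated data in which 100 features were changed. It recovered 53% of those changed by 1 log2 unit and 85% of those changed by 2, with 6 false calls each time.

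The set and all gene lists were chosen with earlier results of these data known. Values on every array are given for the genes past the threshold, the 12 with the smallest p, the 8 of highest wild-type signal and the brightest of each family, 25 genes in all. From the other lists the text names up to 3 genes in order of smallest p. Beyond them it names Pdpn, Aif1, Krt5, Krt15, Perp and bright markers that carry a sum. It also names genes for their place beside others, and defining markers never well above background. The numbers in the titles were used as pairing only in an alternative fit, with the number as a block, and the main p-values are unpaired. The deviations of same-numbered arrays correlated by 0.233, 0.152 and 0.649. On slide 1 the crosswise correlations, 0.358 and 0.279, were no lower, so pairing by number cannot be told apart from the slide. Alternatives were quantile normalisation, median centring, normexp background correction with an offset of 50, the authors' table, other filters on dim probes, the mean over probes, slide or replicate number as a block, differences within slides, a trend in eBayes and leaving out each array. The normexp fit used median spot signals, a choice made after seeing the data, in place of the planned mean signals, which was not run.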

Additional observations from a re-analysis of the deposited data

How the results depend on the processing

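Zfhx3 kept its direction under every alternative run and was the one gene of the set called under quantile normalisation, median centring, normexp, the authors' table, the mean over probes and the filter for all 6 arrays. The number of genes of the set called was 2 (with Tbx3) with slide as a block and with a trend in eBayes. It was 0 with no filter on dim probes, within slide 1, under the replicate block and in each fit without 1 array. For Zfhx3 the adjusted p was then 0.219 (difference -0.81) with no filter, 0.105 (-0.83) within slide 1 and 0.0736 (-0.81) under the replicate block. Over the whole array 134 calls became 3, 286, 11 and 5 with no filter, the slide block, within slide 1 and under the replicate block, and 16 to 61 without 1 array. Aplnr kept -1.69, with an adjusted p of 0.186 with no filter and 0.0786 under the replicate block, was -1.76 with 0.0846 within slide 1, and lay between -1.84 and -1.57 without 1 array, where its call ended in 5 of 6 fits. The block changed no other call of the set. The 7 genes whose groups did not overlap became 4 with normexp (8.51%, and 9.07% of everything tested), 11 with the mean over probes (23.4% and 12.5%) and 21 within slide 1 (44.7% and 38.4%), where 2 arrays a group leave less to overlap. Without 1 array they were 8 to 14, or 17% to 29.8%, and 17.1% to 27.1% of everything tested.

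Of 450 values of the 25 named genes under the alternatives, 31 changed sign, 0 of them of Zfhx3. Of these, 3 were within slide 2, where 1 array a group allows no test (Foxo3 0.102, Lmo2 0.0211, Nr2f1 0.032). Gata2 was 0.0094 with median centring and 0.00711 with the authors' table. Nr2f1 was 0.0101 with median centring, 0.00684 with normexp and 0.00786 with the authors' table. Mef2a was 0.0367 and Tead1 0.29 with the mean over probes, and Meox2 was 0.0141 within slide 1. Without 1 array, the differences ran from -0.28 to 0.27 for Gata2, -0.27 to 0.15 for Mef2a, -0.14 to 0.20 for Zeb1, -0.23 to 0.0106 for Sox18, -0.11 to 0.0483 for Lmo2, -0.11 to 0.10 for Meox2, -0.0817 to 0.0467 for Nr2f1, -0.0113 to 0.0974 for Tbx1, -0.15 to 0.00898 for Tead1 and -0.0038 to 0.12 for Ets2. The cause was not tested. Of the 8 genes brightest in wild type, normexp kept 7 and the mean over probes 6. The mean over probes put Ets2 first, then Tbx1, Lmo2, Meox2 and Elk3, and left out Tcf4 and Foxp1. Dim genes are limited by the background, and Etv2 and Foxf1 were not measured in all arrays of either group.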
